A study of Rattus norvegicus with 8 samples.

Results

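Slow cells of a set labelled C6SPGFP were compared with slow cells of the parental set labelled C6, on 2 arrays of each, which are 4 of the 8 arrays of the series. The arrays were chosen by their titles, and each holds total RNA of the rat glioma line C6, whose subject the labels give as migration. The other 4 arrays hold fast cells of the same sets, 2 arrays each. The labels name no treatment, time or genotype, do not explain the name C6SPGFP, and do not say how slow and fast cells were separated or whether replicates came from separate cultures. The p-values therefore reflect nothing but the spread of these samples, possibly a technical one, and 2 arrays a group limit the precision of every value.

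C6 is a line grown from a chemically induced rat brain tumour. Its cells keep features of glia, the supporting cells of the nervous system, and express genes of astrocytes beside genes of oligodendrocytes and Schwann cells, which make myelin. Sublines of one tumour line can drift apart in culture or after a gene is introduced into them, so the comparison of slow cells gives the distance between both sets before speed is considered.

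The deposited signals were brought to one scale by quantile normalisation, and all signals below are in those units. Pearson's r over the probe sets, a description since probe sets are no replicates, was 0.970 between the C6 slow replicates and 0.977 between the C6SPGFP slow replicates, against 0.936 to 0.953 between the slow arrays of different sets. The 3'/5' ratio of the GAPDH controls, a measure of RNA integrity, was 1.03 and 1.01 on the C6 slow arrays and 0.996 and 0.967 on the C6SPGFP slow arrays. That of the actin controls was 1.01 and 1.01 against 1.12 and 1.07, and that of hexokinase 2.23 and 1.88 against 1.72 and 1.49. None of these 3 ratios overlapped between the sets. Spiked hybridisation controls were read as signal over the trimmed mean of each array. BioC had 1.154 and 1.375 on the C6 slow arrays against 0.667 and 1.01 on the C6SPGFP slow arrays. BioDn had 1.23 and 1.16 against 0.589 and 1.04, and CreX 10.7 and 11.6 against 7.15 and 9.49. BioB overlapped, at 0.4962 and 0.5295 against 0.3936 and 0.4965. The part of these ratios and controls in the results was not tested. Vim, the intermediate filament protein vimentin, was strong on each slow array, at 3082 and 2681 in C6 and 3256 and 3102 in C6SPGFP. Its log2 difference of 0.14 did not pass the test (limma adjusted p = 0.449), and its sign turned to -0.13 when the arrays were scaled linearly. No probe set was named for Gfap, the astrocyte filament protein, so the label of a glial line rests here on Vim, S100b and the progenitor filament nestin (Nes). Nes had 931 and 936 against 916 and 1068, while each probe set of Slc1a3, an astrocyte glutamate transporter, stayed at 22 or less on the slow arrays. The glial marker Fabp7 lay below the signal filter, at 0.6 and 1.4 in C6 slow and 1.525 and 2.325 in C6SPGFP slow.

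Signals of the markers of other cell types were summed on each array. The summed signal of the microglial and haematopoietic markers was 92.8 and 86.0 on the C6 slow arrays and 104 and 93.3 on the C6SPGFP slow arrays. That of the endothelial and mural markers was 273 and 310 against 275 and 296, and that of the neuronal markers 171 and 138 against 224 and 273. None of the 4 tested markers of any of these 3 types passed, and Itgam, Cd53, Cd74, Kdr, Des and Syt1 lay below the signal filter. The neuronal sums did not overlap between the sets, and their part in the neuronal results was not tested. The sum of the oligodendroglial and Schwann markers was 791 and 1030 against 1861 and 1971, and that of the glial markers 4440 and 4023 against 5405 and 5422. In bulk RNA, fewer cells of a type and less RNA per cell cannot be told apart, here and in each result below.

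Of 6684 probe sets with a mean signal of at least 8, 424 passed the test at an adjusted p of 0.05 (6.34%; limma, Benjamini-Hochberg). In C6SPGFP 220 were higher (3.29%) and 204 lower (3.05%), and 141 and 142 of them differed by more than 2-fold. They covered 164 genes that were higher and 147 that were lower, with no gene in both directions. Before adjustment, 1401 probe sets had a p under 0.05. Every called probe set was free of overlap between the slow arrays of the sets, but so were 51.4% of all those tested. The count depended on single arrays: it was 95 without C6SPGFP slow replicate 2, 157 without C6SPGFP slow replicate 1 and 196 without C6 slow replicate 1. It was 270 with the slow arrays fitted alone, and 2 with the signals as deposited, where C6SPGFP fast replicate 1 stands at its own scale and widens the shared estimate of the spread.

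**Figure D1:**
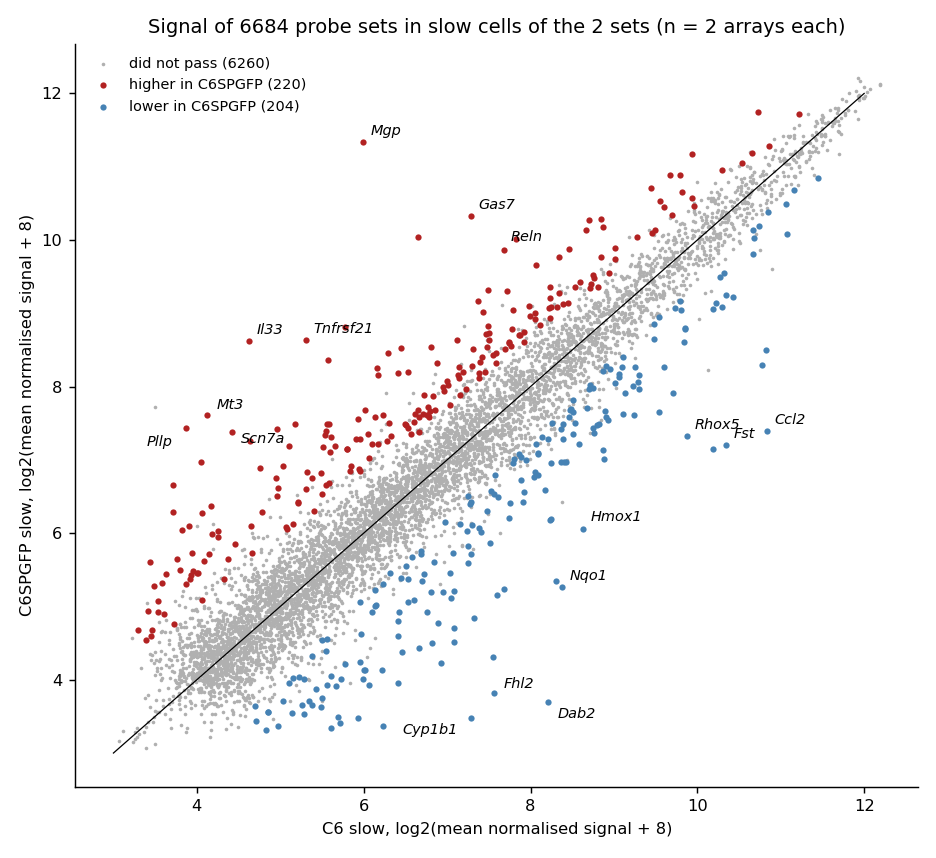
Mean normalised signal of each tested probe set in C6 slow cells (horizontal axis) and C6SPGFP slow cells (vertical axis), both as log2(signal + 8), with 2 arrays per set. Red points (220) were higher and blue points (204) lower in C6SPGFP, grey points did not pass, and the line marks equal signal; Mgp lies farthest above the line and Dab2 farthest below it.

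Among the genes higher in C6SPGFP, matrix Gla protein (Mgp), a secreted inhibitor of calcification, differed most. Its signal was 45.6 and 66.1 on the C6 slow arrays and 2681 and 2475 on the C6SPGFP slow arrays. The difference on the scale of log2(signal + 8), which draws differences of weak transcripts towards 0, was 5.36 ± 0.36 (SE; adjusted p = 0.000151). Both C6SPGFP arrays were far above both C6 arrays. Il33, a cytokine kept in the nucleus until cells are damaged, had 22.2 and 11.2 against 375 and 399 (4.04 ± 0.25, adjusted p = 9.79e-05). Plasmolipin (Pllp), a membrane protein of myelin, had 1.88 and 11.3 against 173 and 158 (3.65 ± 0.31). Metallothionein 3 (Mt3), the zinc-binding metallothionein of the brain, had 10.8 and 8.09 against 167 and 209 (3.49 ± 0.20). All 3 were weak on both C6 arrays and clearly measured on both C6SPGFP arrays.

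Others of the 20 largest increases had varied roles. Tnfrsf21, a death receptor of the tumour necrosis factor receptor family, had 39.6 and 23.8 on the C6 slow arrays against 445 and 331 on the C6SPGFP slow arrays (log2 difference 3.33 ± 0.24). Gas7, a growth arrest protein that shapes the actin cytoskeleton, had 101 and 195 against 1304 and 1238 (3.10 ± 0.26). Scn7a, an atypical sodium channel of glia, had 16.1 and 10.7 against 171 and 145 (2.97 ± 0.23). The inward rectifier Kcnj10, through which astrocytes take up potassium, was the least even of the group. It had 5.80 and 4.53 against 124 and 62.0 (2.87 ± 0.32, adjusted p = 0.00218), with the C6SPGFP arrays far from each other. Kcnj10 reached a mean signal of 8 in C6SPGFP slow cells alone, so it was tested only because it was high there. Plpp3, a lipid phosphatase, had 4.53 and 5.74 against 66.1 and 74.2 (2.57 ± 0.26). Reln, the secreted protein reelin that guides migrating neurons, had 204 and 189 against 855 and 994 (2.18 ± 0.34).

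The remaining large increases were Cpe (2.80), Scg2 (2.42), the protein kinase C isoform Prkcb (2.32), the glutaminyl cyclase Qpct (2.28), Max (2.20), the phosphoinositide phosphatase Inpp4a (2.19), Vps33a of endosomal transport (2.08), Egr2 (2.07), the interleukin 1 receptor chain Il1rap (2.07) and the engulfment receptor Megf10 (1.96). Other probe sets of Prkcb (0.51), Vps33a (0.58) and Il1rap (1.20) did not pass. Among the 20 largest increases the highest adjusted p was 0.0233, that of Megf10. Several of these calls rested on single arrays. Without a C6SPGFP slow array the adjusted p rose to 0.0808 for Scg2, 0.0721 for Prkcb and 0.0800 for Reln with either array, 0.0594 for Qpct and 0.0583 for Egr2 without replicate 2, and 0.0585 for Max without replicate 1. Inpp4a (0.116) ended without C6 slow replicate 1 or C6SPGFP slow replicate 2, Il1rap (0.0651) without replicate 1 of either set, and Megf10 (0.134) without any of 3 of the slow arrays. In these and the later sentences of this kind the value is the highest adjusted p of the runs that each left out 1 array.

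Probe sets that carried no single gene symbol were among the largest increases as well and were not named. AF028784mRNA#1_s_at had 76.0 and 108 on the C6 slow arrays against 1064 and 1025 on the C6SPGFP slow arrays (log2 difference 3.41), and K03242_at had 44.5 and 48.8 against 463 and 419 (3.04). Both were separated as widely as the named genes around them. They are 2 of 60 called probe sets without a single symbol.

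**Figure D2:**
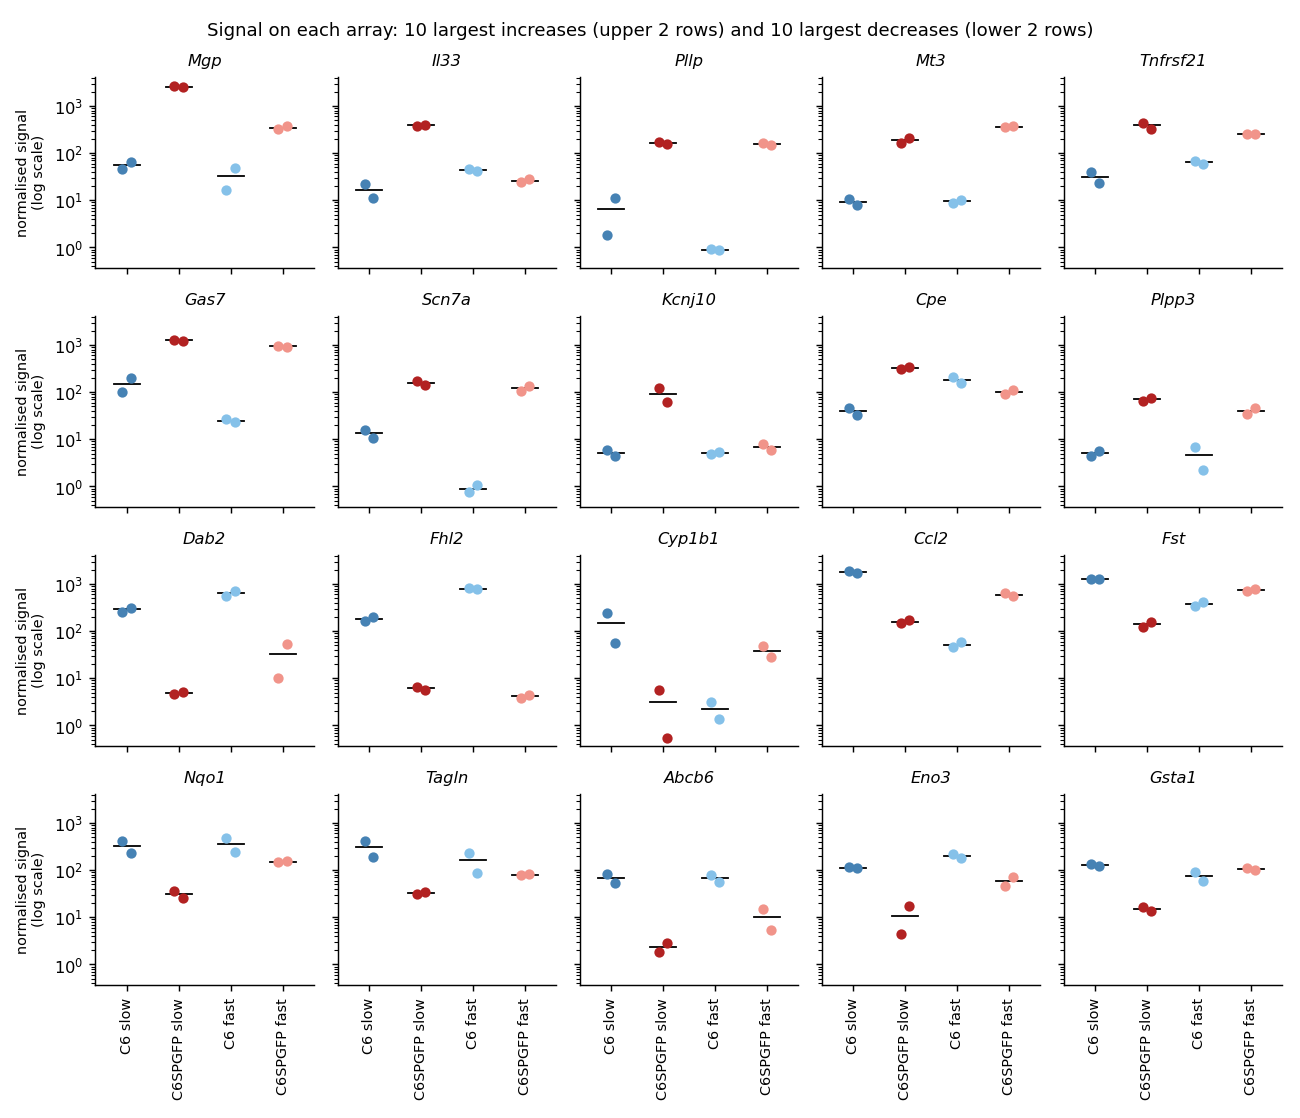
Normalised signal (log scale) of the 10 largest increases (upper 2 rows) and the 10 largest decreases (lower 2 rows), with 1 point per array, a bar at the mean of the 2 arrays, and the groups C6 slow, C6SPGFP slow, C6 fast and C6SPGFP fast from left to right. The slow arrays of both sets are apart in every panel because the genes were chosen for it. For Il33, Cpe, Ccl2, Fst, Cyp1b1 and Gsta1 the fast arrays lie in the opposite order.

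Among the genes lower in C6SPGFP, Dab2, an endocytic adaptor, differed most, with 260 and 318 on the C6 slow arrays against 4.67 and 5.26 on the C6SPGFP slow arrays (log2 difference -4.51 ± 0.47, adjusted p = 0.00169). Fhl2, a LIM domain protein that joins integrins, actin and transcription, had 165 and 198 against 6.5 and 5.72 (-3.74 ± 0.19, adjusted p = 5.75e-05). Both transcripts were of middle strength in C6 and close to the floor of the array in C6SPGFP. Ccl2, a chemokine that attracts monocytes, had 1888 and 1753 against 150 and 170 (-3.45 ± 0.17), and its other probe set gave -2.48. Follistatin (Fst), which binds and blocks activin, had 1292 and 1301 against 122 and 157 (-3.15 ± 0.16), with -3.04 on its other probe set. The homeobox gene Rhox5 had 976 and 893 against 149 and 157 (-2.55 ± 0.16), whereas its other probe set gave -0.03 and did not pass. Ccl2, Fst and Rhox5 remained well measured in C6SPGFP, at folds of 10.9, 8.90 and 5.86 below C6 on the scale of signal plus 8.

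Transgelin (Tagln), an actin-binding protein of contractile cells, had 421 and 194 on the C6 slow arrays against 31.0 and 34.8 on the C6SPGFP slow arrays (-2.85 ± 0.46). Its other probe set gave -1.69 and missed the threshold (adjusted p = 0.109). The call ended without C6 slow replicate 1 or either C6SPGFP slow array (0.0671). Snai2, a repressor of epithelial genes, had 43.9 and 45.5 against 2 and 3.2 (-2.31 ± 0.26). Cebpb, a transcription factor of the inflammatory response, had 49.4 and 37.8 against 1.86 and 4.64 (-2.20 ± 0.25), and -1.64 on its other probe set. The C6SPGFP arrays lay near the floor for Snai2 and for this probe set of Cebpb.

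The remaining large decreases were the porphyrin transporter Abcb6 (-2.83), the muscle enolase Eno3 (-2.78), the lipid phosphatase Mtmr7 (-2.44), the guanine nucleotide exchange factor Dock8 (-2.41), the retinoic acid hydroxylase Cyp26b1 (-2.36), Slfn2 (-2.28) and the cationic amino acid transporter Slc7a1 (-2.27), beside Cyp1b1, Nqo1, Gsta1, Hmox1 and Abcb1b, which are described with the detoxification genes. Other probe sets did not bear out every one of them: those of Slc7a1 gave -0.21 and -0.86 and did not pass, and those of Dock8 gave -1.28, which passed, and 0.63, which did not (adjusted p = 0.110). Of 311 called genes, 136 had several tested probe sets. In 119 of these all probe sets had the same sign, and in 31 all were called the same way. The share among all tested genes with several probe sets was not counted, so these numbers only describe the called genes.

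Gene lists were then read by their counts, each gene being represented by its probe set of highest mean signal. Over all 3878 genes 6.91% passed on that probe set, 3.79% higher and 3.12% lower, and the median log2 difference was 0.0136. The lists were chosen with earlier results of these data known, so their counts describe them and give no independent support for a direction. Some counted members passed the signal filter only through the group where they were high, among them Kcnj10, Ntsr2, Igfbp3, Hmga2, Il6 and Hspa1a. The calls of these members give no support for a direction or a share.

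Oligodendroglial and Schwann genes were called in one direction. Of 18 tested, 5 were higher in C6SPGFP and none lower (27.8% called), with a median log2 difference of 0.295; 10 of the 18 differences were positive and 8 negative. The low-affinity neurotrophin receptor Ngfr, a Schwann cell gene, had 381 and 415 on the C6 slow arrays against 1129 and 1111 on the C6SPGFP slow arrays (1.48 ± 0.15, adjusted p = 0.00132). Cnp, an enzyme of the myelin sheath, had 386 and 516 against 1199 and 1292 (1.46 ± 0.18). The receptor Pdgfra of oligodendrocyte progenitors had 378 and 542 against 1141 and 1158 (1.33 ± 0.18). These 3 were well measured in C6 and between 2- and 3-fold stronger on both C6SPGFP arrays. Pmp22, a structural protein of peripheral myelin, had a difference of 1.25 and the adhesion molecule Ncam1 of 1.13. Other probe sets did not pass for Ngfr (0.20), Pdgfra (0.99 and 1.05), Pmp22 (0.26) and Ncam1 (0.65). Sox10, the transcription factor of both lineages, had 240 and 367 against 531 and 571. Its arrays did not overlap, as was so for 51.4% of all probe sets tested. Its difference of 0.87 ± 0.22 missed the threshold (limma adjusted p = 0.0563). The neuregulin receptor Erbb3 had 1.68 on its strongest probe set, which did not pass, and 1.35 on another, which did (adjusted p = 0.0273). The myelin genes Mbp, Mog and Mag had signals under 111 on the slow arrays and did not pass, with differences of -0.58, -0.39 and -0.27. Without C6SPGFP slow replicate 2 the count was 3, and Pdgfra (0.0526) and Pmp22 (0.0569) missed the threshold.

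Astroglial genes were called in both directions. Of 21 tested, 3 were higher and 5 lower in C6SPGFP (38.1% called), and the median log2 difference was 0.0787. The calcium-binding protein S100b had 421 and 395 on the C6 slow arrays against 1221 and 1230 on the C6SPGFP slow arrays (1.57 ± 0.16, adjusted p = 0.00132), while its other probe set gave 0.46 and did not pass. Kcnj10 and the neurotensin receptor Ntsr2 (1.14) were the other increases, Ntsr2 from signals of 2.80 and 3.12 to 15.4 and 17.0. With means of 2.96 in C6 slow, 9.45 in C6 fast and 9.14 in C6SPGFP fast cells, Ntsr2 passed the signal filter only through its C6SPGFP slow arrays. Kcnj10 did so too, and both are held in the 3 higher calls and the 38.1%. On the other side, glutamine synthetase (Glul), by which astrocytes clear glutamate, had 466 and 490 against 190 and 168 (-1.38 ± 0.19). Of its other probe sets 1 passed (-1.01), and those at -0.35 (adjusted p = 0.394) and -0.56 (0.245) did not. The gap junction protein Gja1 had 21.1 and 33.2 against 3.50 and 3.85 (-1.57 ± 0.27). The inhibitor of differentiation Id3 (-1.23), the secreted chaperone Clu (-1.18) and the fatty acid binding protein Fabp5 (-0.83) were lower too. When 1 array was left out, calls were lost for Ntsr2 (0.164, without any of the slow arrays), Gja1 (0.0825, without C6 slow replicate 2 or either C6SPGFP slow array), Clu (0.107, without C6 slow replicate 1 or C6SPGFP slow replicate 2) and Glul (0.0537, without C6SPGFP slow replicate 2). Without C6SPGFP slow replicate 2 the list held 2 higher and 1 lower call.

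**Figure D3:**
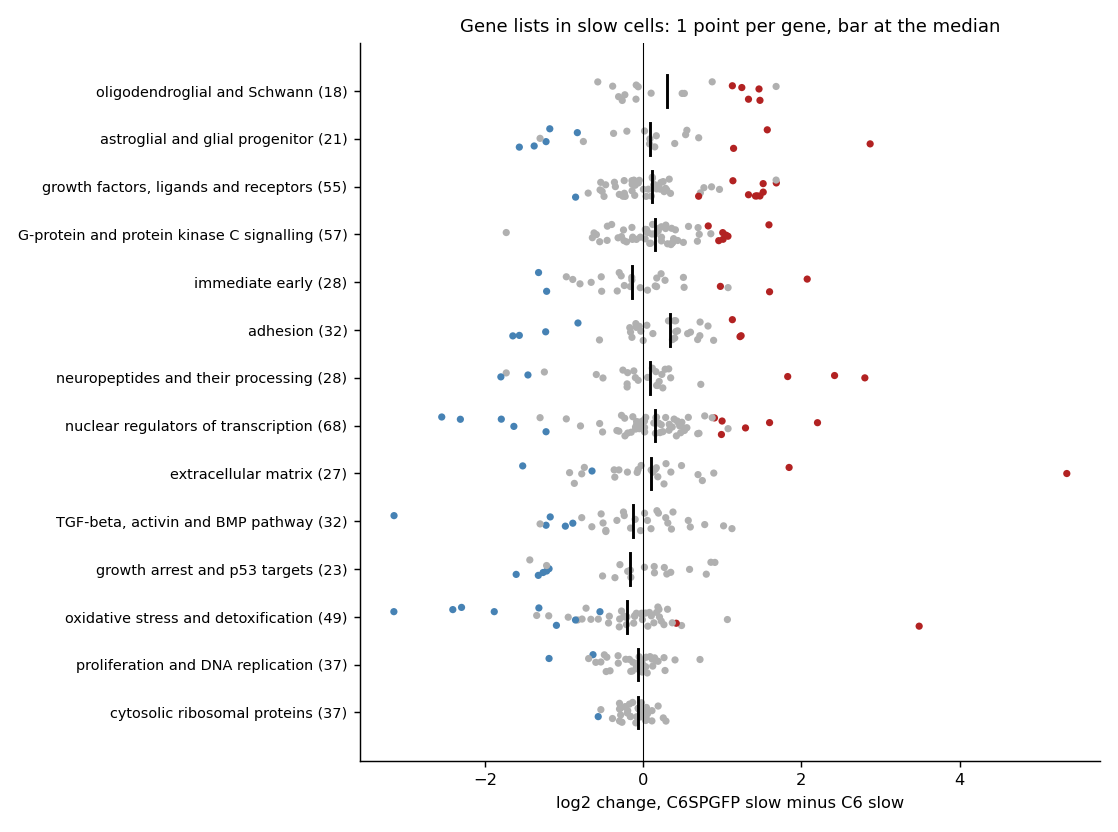
Log2 difference, C6SPGFP slow minus C6 slow (horizontal axis), of the tested members of 14 gene lists, with 1 point per gene and the number of genes in brackets; red points were called higher, blue points lower, grey points did not pass, and the black bar is the median. Called oligodendroglial and Schwann genes lie to the right, called TGF-beta, p53 target and most called detoxification genes to the left, and all list medians lie between -0.207 and 0.343.

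Of 55 growth factors, ligands and receptors, 9 were higher and 1 lower in C6SPGFP (18.2% called), with a median log2 difference of 0.115. Among ligands, Igf1 had 18.3 and 20.5 on the C6 slow arrays against 65.8 and 75.0 on the C6SPGFP slow arrays (1.52 ± 0.34), pleiotrophin (Ptn) had 282 and 404 against 1042 and 829 (1.44 ± 0.23), and Pdgfb and Hbegf differed by 1.42 and 0.70. Igfbp3, which binds insulin-like growth factors, had 10.1 and 4.36 against 38.5 and 31.5 (1.52 ± 0.28); it too reached a mean of 8 in C6SPGFP slow cells alone. Each of these genes was higher on both C6SPGFP arrays than on both C6 arrays, as every called increase was. Among receptors, the phosphatase Ptprz1, to which pleiotrophin binds, had 69.1 and 100 against 299 and 272 (1.68 ± 0.25). The GDNF receptor Gfra1 had 181 and 165 against 378 and 400 (1.13 ± 0.20), and Ngfr and Pdgfra are given above. No other probe set of Igf1 (0.80, 0.59, 0.19 and -0.47) or Ptprz1 (0.78) passed. The single decrease was Igf2r, which carries insulin-like growth factor 2 to lysosomes, with 349 and 361 against 199 and 186 (-0.86 ± 0.15). The epidermal growth factor receptor Egfr had 8.85 and 25.9 against 12.7 and 4.93, which overlap (adjusted p = 0.514). The list's count fell to 2 higher and none lower without either C6SPGFP slow array, 5 higher without C6 slow replicate 1 and 6 without C6 slow replicate 2. The calls of Ptprz1 (0.0540) and Igf2r (0.107) were lost without either C6SPGFP slow array, that of Igfbp3 (0.114) without 3 of the slow arrays, and that of Igf1 (0.197) without any of the slow or either of the C6SPGFP fast arrays.

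Of 57 genes of G-protein and protein kinase C signalling, 7 were higher in C6SPGFP and none lower (12.3% called), with a median of 0.153. The beta subunit Gnb1 had 182 and 222 on the C6 slow arrays against 590 and 654 on the C6SPGFP slow arrays (log2 difference 1.59 ± 0.24, adjusted p = 0.00669), and other probe sets gave 1.78, which passed, and 0.41, which did not. The receptors were Lpar1 for lysophosphatidic acid (1.07), P2ry2 for ATP and UTP (1.04) and the thrombin receptor F2r (log2 difference of 1). F2r had signals of 887 and 594 against 1400 and 1534. The enzymes were the phospholipases Plcd1 (1.01) and Plcb1 (0.82) and the cyclic AMP phosphodiesterase Pde4b (0.95); other probe sets of Plcb1 and Pde4b did not pass. Rgs4, a regulator of G-protein signalling, lay below the filter, at 1.71 and 3.74 against 3.23 and 3, and Rgs3 had no named probe set. The count of this list was none without C6SPGFP slow replicate 2, 1 without C6SPGFP slow replicate 1, 2 without C6 slow replicate 1, and 4 without C6 slow replicate 2 or either C6SPGFP fast array. The calls of Gnb1 (0.0677), Plcd1 (0.136), Lpar1 (0.267) and P2ry2 (0.264) were lost in at least 1 of those runs, all 4 without C6SPGFP slow replicate 2.

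Nuclear regulators were called in both directions, 6 higher and 5 lower of 68 (16.2% called; median 0.143). The higher ones were Max, the partner of Myc proteins, the growth-responsive zinc finger Egr1, the chromatin protein Hmga2 (1.29), the circadian receptor Nr1d2 (a log2 difference of 1), the Max partner Mxi1 (0.99) and the neural factor Pou3f2 (0.90). The lower ones were Rhox5, Snai2, the leucine zipper factor Maf, Cebpb and Id3. Max had 8.69 and 8.68 on the C6 slow arrays against 78.6 and 60.2 on the C6SPGFP slow arrays, and Maf had 126 and 74.2 against 23.1 and 21.4 (-1.80 ± 0.26). As in every called probe set, neither pair of arrays overlapped the other. Other probe sets of Maf (-0.42) and Mxi1 (0.43) did not pass. Hmga2 had 6.25 and 2.2 on the C6 slow arrays against 25.1 and 18.3 on the C6SPGFP slow arrays. Its means were 4.21 in C6 slow, 2.44 in C6 fast and 8.8 in C6SPGFP fast cells. Hmga2 thus passed the signal filter only through its C6SPGFP slow arrays. Calls were lost for Hmga2 (0.208, without any of the 8 arrays), Nr1d2 (0.130, without any slow array) and Maf (0.0596, without C6SPGFP slow replicate 2). The higher count was 1 without C6SPGFP slow replicate 1, 2 without C6SPGFP slow replicate 2 or C6 slow replicate 1, and 3 without either C6SPGFP fast array.

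Immediate early genes, which answer growth signals within minutes to hours, were split as well. Of 28, 3 were higher and 2 lower (17.9% called; median -0.146). Egr1 had 172 and 156 on the C6 slow arrays against 543 and 482 on the C6SPGFP slow arrays (log2 difference 1.6 ± 0.16, adjusted p = 0.00132), and Egr2, which also drives myelination in Schwann cells, had 87.1 and 40.5 against 272 and 284. Fos, a subunit of AP-1, had 119 and 147 against 310 and 232 (0.97 ± 0.21), and lost the call without 3 of the slow or either of the C6SPGFP fast arrays (0.191). In the other direction Ier3, a survival protein, had 848 and 691 against 278 and 325 (-1.33 ± 0.16), and the zinc finger Klf4 had 621 and 567 against 232 and 268 (-1.22 ± 0.15). Without C6SPGFP slow replicate 2 the call of Egr2 was lost and 1 gene, Egr1, was higher. Of the Egr1 probe sets, another passed (1.70), and 2 with signals under 62 on the slow arrays did not. Nor did others of Fos (1.43) and Ier3 (-0.53).

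Neuropeptide and neuronal genes formed the next group. Of 28 neuropeptide genes 3 were higher and 2 lower (17.9% called; median 0.0838). Carboxypeptidase E (Cpe), which trims peptide hormones, had 47.1 and 32.1 on the C6 slow arrays against 304 and 336 on the C6SPGFP slow arrays (2.80 ± 0.23, adjusted p = 0.000485). Secretogranin 2 (Scg2), a protein of secretory granules, had 14.4 and 42.1 against 158 and 185 (2.42 ± 0.39). Calcb, which encodes a calcitonin gene-related peptide, had 169 and 174 against 617 and 642 (1.83 ± 0.17). These 3 were higher on both C6SPGFP arrays, whereas proenkephalin (Penk) had 855 and 806 against 221 and 244 (-1.80 ± 0.15). The natriuretic peptide Nppb had 173 and 73.2 against 36.2 and 36.0 (-1.46 ± 0.35), a call that was lost without any of 7 of the 8 arrays (0.203). Of 33 neuronal genes 3 were higher (Cpe, Reln and Gad1) and 1 lower (Sv2b; 12.1% called; median 0.00912). Gad1, which makes the transmitter GABA, had 21.5 and 27.8 against 102 and 123 (1.88 ± 0.22). Sv2b, a synaptic vesicle protein, had 32.1 and 26.9 against 8.84 and 8.07 (-1.18 ± 0.25), a call lost without any of the slow or either of the C6SPGFP fast arrays (0.153). Tubb2b, a neural isotype of beta-tubulin, had 1629 and 1742 against 3357 and 3515 (1.02 ± 0.12).

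Surface and matrix genes were divided between the sets. Of 32 adhesion genes 3 were higher and 4 lower (21.9% called; median 0.343). The tetraspanin Cd81 had 185 and 117 on the C6 slow arrays against 355 and 362 on the C6SPGFP slow arrays (1.24 ± 0.23), the heparan sulphate proteoglycan glypican 1 (Gpc1) had 703 and 907 against 1753 and 2007 (1.22 ± 0.15), and Ncam1 had 299 and 290 against 659 and 644 (1.13 ± 0.14). The mucin podoplanin (Pdpn, -1.65), Gja1 (-1.57), syndecan 1 (Sdc1, -1.24) and N-cadherin (Cdh2, -0.83) were lower. Sdc1 had 680 and 559 against 236 and 281, and its other probe set (-0.63) did not pass, nor did that of Ncam1. Gpc1 and Sdc1, which both carry heparan sulphate chains, thus differed in opposite directions. Of 27 matrix genes Mgp and the brain proteoglycan brevican (Bcan) were higher and the laminin chain Lama3 and fibronectin (Fn1) lower (14.8% called; median 0.0990). Bcan had 27.5 and 49.2 against 142 and 166 (1.84 ± 0.29), and Fn1 had 1567 and 1693 against 1088 and 985 (-0.65 ± 0.12), with no call on its other probe sets.

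Of 32 proteases and inhibitors, the sheddase Adam17 (1.17) was higher and the metalloproteinase inhibitor Timp3 and tissue factor (F3) were lower (9.38% called; median 0.0515). Timp3 had 150 and 147 on the C6 slow arrays against 41.6 and 47.1 on the C6SPGFP slow arrays (-1.58 ± 0.23), and F3, the starter of blood clotting, had 174 and 115 against 53.2 and 44.0 (-1.41 ± 0.24). Of 38 actin and microtubule genes Tubb2b and Rhob (0.77) were higher and the actin-capping protein Capg was lower (-1.15; 7.89% called). The calls of Bcan (0.0787), Lama3 (0.101), Timp3 (0.0529) and Cdh2 (0.165) ended without C6SPGFP slow replicate 2, and so did those of Cd81 (0.124), Pdpn (0.164), Fn1 (0.134), Adam17 (0.114), F3 (0.107) and Rhob (0.281). Most of these ended without another slow array as well, and Capg (0.0629) ended without replicate 1 of either set. The adhesion list held 2 higher and 1 lower call without either C6SPGFP slow array, and the matrix list 1 call without C6SPGFP slow replicate 2.

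TGF-beta, activin and BMP genes were called lower only. Of 32 tested, 5 were lower in C6SPGFP and none higher (15.6% called; median -0.132). Beside Fst and Id3, a target of BMP signals, these were the TGF-beta-induced leucine zipper gene Tsc22d1, the latent TGF-beta binding protein Ltbp1 and the ligand Bmp7. Id3 had 959 and 861 on the C6 slow arrays against 379 and 386 on the C6SPGFP slow arrays (log2 difference -1.23 ± 0.14), and Tsc22d1 had 1496 and 997 against 535 and 536 (-1.18 ± 0.19). Ltbp1 had 666 and 538 against 278 and 320 (-0.99 ± 0.16), and Bmp7 had 76.0 and 99.6 against 42.3 and 44.2 (-0.89 ± 0.22). All 5 were lower on both C6SPGFP arrays, as every called decrease was. The count was 2 without either C6SPGFP slow array and 3 without C6 slow replicate 1. Tsc22d1 (0.0697) ended without either C6SPGFP slow array, and Ltbp1 (0.0758) without these or C6 slow replicate 1.

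In the list of growth arrest genes and targets of the tumour suppressor p53, calls were likewise lower only, 5 of 23 (21.7% called, median -0.164). Gas7, a growth arrest protein that was not in this list, was called higher (3.10). The p53 ubiquitin ligase Mdm2 had 707 and 490 on the C6 slow arrays against 194 and 182 on the C6SPGFP slow arrays (-1.61 ± 0.23, adjusted p = 0.00621). The DNA damage gene Gadd45a had 481 and 407 against 161 and 182 (-1.33 ± 0.25), and -2.04 on another probe set. The cyclin-dependent kinase inhibitor Cdkn1a had 522 and 319 against 165 and 165 (-1.27 ± 0.28), and -1.82 on another probe set. Ccng1, a cyclin induced by p53, had 1549 and 1183 against 591 and 584 (-1.19 ± 0.15), and Klf4 is given above. For Mdm2, Cdkn1a and Ccng1 the C6 arrays were farther apart than the C6SPGFP arrays, with C6 slow replicate 1 the higher. Among all 204 lower calls that replicate was the higher of its pair in 144, against 3427 of the 6684 probe sets tested. The count was 2 without C6SPGFP slow replicate 2 and 3 without C6SPGFP slow replicate 1 or C6 slow replicate 1; the calls of Mdm2 (0.0583), Gadd45a (0.113) and Cdkn1a (0.172) ended in at least 1 of these runs, each of them without C6SPGFP slow replicate 2. Of 37 proliferation genes 2 were lower, Ccng1 and the histone chaperone Nap1l1 (-0.64), and none higher (5.41% called). Other probe sets of Mdm2 (-0.83), Gadd45a (-1.58) and Nap1l1 (-0.52 and 0.13) did not pass.

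Oxidative stress and detoxification genes held 2 calls higher and 8 lower among 49 tested (20.4% called; median -0.207), and 32 of the 49 differences were negative. Many of them answer the aryl hydrocarbon receptor, a sensor of aromatic compounds that binds the letters GCGTG, or the oxidative stress factor Nrf2. Cyp1b1, the cytochrome that oxidises aromatic compounds and oestrogens, had 242 and 55.2 on the C6 slow arrays against 5.79 and 0.550 on the C6SPGFP slow arrays (log2 difference -3.53 ± 0.58, adjusted p = 0.0102). The C6 arrays were far apart, and this call ended without C6SPGFP slow replicate 2 (0.0890). The other 3 probe sets of Cyp1b1 were called as well, at -3.16, -2.41 and -1.10. The quinone reductase Nqo1 had 424 and 228 against 35.7 and 25.3 (-3.06 ± 0.37), and 2055 and 1543 against 355 and 356 on its other probe set (-2.30 ± 0.22). Haem oxygenase 1 (Hmox1) had 415 and 364 against 64.8 and 53 (-2.57 ± 0.24), and -1.89 on its other probe set. The calls of Nqo1 and Hmox1 held on both probe sets whichever array was left out.

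The glutathione transferase Gsta1 had 134 and 122 on the C6 slow arrays against 16.2 and 13.5 on the C6SPGFP slow arrays (-2.58 ± 0.23). Its 3 probe sets gave -2.58, -2.09 and -1.32, and since this family has near-identical copies, which copy was measured is uncertain. The drug efflux pump Abcb1b had 100 and 54.0 against 5.96 and 9.03 (-2.41 ± 0.39), a call that ended without C6 slow replicate 1 or either C6SPGFP slow array (0.0697). The glutathione peroxidase Gpx4 had 1247 and 1330 against 535 and 665 (-1.10 ± 0.15), the aldose reductase Akr1b1 differed by -0.86 and the peroxiredoxin Prdx1 by -0.55. The increases were Mt3 and Gstp1, another glutathione transferase, at 1837 and 1873 against 2442 and 2514 (0.42 ± 0.09; 0.14 on its other probe set, which did not pass), the latter lost without any slow or either C6SPGFP fast array (0.196). The count of lower genes was 5 without either C6SPGFP slow array or C6 slow replicate 1 and 10 without C6 slow replicate 2. Nfe2l2, which encodes Nrf2, had 191 and 96.2 against 88.7 and 73.2 and did not pass (adjusted p = 0.221).

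Promoters of this list were searched for GCGTG on both strands in the 250 bases before the start of transcription (RefSeq, GRCr8). GCGTG and its reverse complement CACGC are in capitals below. The promoters of Cyp1b1, Nqo1 and Mt3 are shown because they belong to the largest differences of the list in each direction. Each of these promoters holds the letters, and none without them is shown. They lie at chr6:21094315-21094564 on the plus strand, chr19:52220268-52220517 on the minus strand and chr19:10856081-10856330 on the minus strand.
Cyp1b1: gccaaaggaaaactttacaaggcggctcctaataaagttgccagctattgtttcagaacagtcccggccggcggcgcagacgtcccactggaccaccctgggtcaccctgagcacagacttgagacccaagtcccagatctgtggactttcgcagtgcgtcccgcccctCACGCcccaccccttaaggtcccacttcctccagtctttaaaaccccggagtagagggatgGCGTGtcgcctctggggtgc
Nqo1: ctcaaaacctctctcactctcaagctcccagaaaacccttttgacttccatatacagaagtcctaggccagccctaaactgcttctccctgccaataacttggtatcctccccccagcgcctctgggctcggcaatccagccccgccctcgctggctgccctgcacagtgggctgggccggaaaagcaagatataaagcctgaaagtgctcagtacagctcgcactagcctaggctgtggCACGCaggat
Mt3: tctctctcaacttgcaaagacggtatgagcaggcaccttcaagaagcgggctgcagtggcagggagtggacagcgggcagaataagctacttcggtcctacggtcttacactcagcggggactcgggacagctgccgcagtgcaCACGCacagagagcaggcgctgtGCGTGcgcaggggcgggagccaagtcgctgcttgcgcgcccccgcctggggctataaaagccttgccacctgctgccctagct

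The Cyp1b1 window held 2 matches, Nqo1 1 and Mt3 2, so the letters were in promoters of genes that were lower and of one that was higher. GCGTG was in 25.9% of all 33469 promoters of the table. Within the list it was in 3 of the 6 promoters found for the 8 lower genes (Cyp1b1, Gpx4 and Nqo1), in both promoters of the higher genes, and in 15 of 31 (48.4%) of the genes that did not pass. The letters TGACNNNGC, the core that Nrf2 binds, were in 10.1% of all promoters, in 1 of the 6 lower genes (Prdx1), in Gstp1 of the higher ones, and in 6 of the 31 others. For GCGTG the share was thus 50% of the lower genes against 48.4% of the members that did not pass.

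Of 33 chemokines, cytokines and receptors Il33 was higher and Ccl2 and Il6 were lower (9.09% called; median -0.134). Il6, an inflammatory cytokine, had 33.4 and 31.8 on the C6 slow arrays against 1.86 and 8.26 on the C6SPGFP slow arrays (-1.68 ± 0.31), and the call ended without either C6 slow array or C6SPGFP slow replicate 1 (0.0952). With means of 5.06 in C6SPGFP slow, 5.29 in C6 fast and 9.60 in C6SPGFP fast cells, Il6 passed the signal filter only through its C6 slow arrays. Of 18 genes of arachidonic acid and prostaglandin synthesis the cyclooxygenase Ptgs1 (-1.6) and the carbonyl reductase Cbr1 (-1.31) were lower (11.1% called). Cbr1 had 408 and 463 against 168 and 173, but its other probe set had 197 and 190 against 96.2 and 226, which overlap (-0.37, adjusted p = 0.586). Ptgs1 lost its call without 3 of the slow arrays (0.162). Of 24 glycolysis genes the glucose transporter Slc2a1 was lower, with 151 and 137 against 34.9 and 45.5 (-1.66 ± 0.21), and the lactate dehydrogenase subunit Ldhb was higher (0.87). Of 54 channels, pumps and transporters Kcnj10 and the glutamate transporter Slc1a1 (1.44) were higher and the chloride cotransporter Slc12a2 (-1.13) was lower (5.56% called). The calls of Ldhb (0.135), Slc1a1 (0.0835) and Slc12a2 (0.113) each ended without either C6SPGFP slow array.

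The remaining lists held at most 3 calls each, against a background share of 6.91%. Among 37 ribosomal protein genes 1 was called (2.7%), Rpl36, lower by a log2 difference of -0.57, and among 31 respiratory chain genes 1 (3.23%), Ndufv2, higher by 0.94. Of 24 sterol and fatty acid genes 1 was called (4.17%), Acsl5 (-0.66), and of 29 heat shock genes the chaperones Dnajb9 (a log2 difference of 1) and Hspa1a (-1.06) were (6.9%). Hspa1a reached a mean of 8 in C6 slow cells alone. Of 26 interferon and antigen presentation genes B2m (0.66) was higher and Gbp2 (-1.19) and Psme2 (-0.72) were lower (11.5%). In the microglial and haematopoietic list Cd48 (1.12) was higher and Spn (-1.27) lower of 9 tested (22.2%). In the endothelial and mural list none of 10 was called at an adjusted p of 0.05 by limma (0%), and 1 had an unadjusted p under 0.05. Acsl5, Dnajb9, Hspa1a, B2m, Gbp2 and Cd48 lost the call in at least 5 of the 8 runs that each left out an array, and Rpl36, Psme2, Ndufv2 and Spn lost it without C6SPGFP slow replicate 2. The highest adjusted p of these 10 genes was 0.223, that of Cd48.

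The difference between the sets was then set beside that between the fast cells of the same sets, which shares no array with it. Both came from the same fit and share its estimate of the spread of each probe set. The calls in slow and in fast cells are therefore not independent. Of the 424 probe sets called in slow cells, 359 (84.7%) had the same sign in fast cells, against 63.1% of all 6684 tested. In fast cells 1042 probe sets were called (15.6%), and 231 were called the same way in both, which is 54.5% of the slow calls and 22.2% of the fast calls. This count was 60 without C6SPGFP slow replicate 2, 80 without C6SPGFP slow replicate 1, 128 without C6 slow replicate 1 and 135 without either C6SPGFP fast array. These were 134 higher and 97 lower in C6SPGFP. Pllp had 0.912 and 0.900 on the C6 fast arrays against 164 and 148 on the C6SPGFP fast arrays, and Mt3 had 8.87 and 10.1 against 359 and 370. Both genes were thus apart between the sets in slow and in fast cells alike. Dab2 had 560 and 717 against 10.3 and 54.4, Snai2 had 123 and 76.3 against 3.33 and 3.31, and Hmox1 had 300 and 185 against 55.2 and 54.7. Dab2, Snai2 and Hmox1 were also lower in C6SPGFP at both speeds.

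In the opposite direction, 23 of the slow calls were called the other way in fast cells, 22 of them lower in C6SPGFP among slow and higher among fast cells. Ccl2 had 45.6 and 58.5 on the C6 fast arrays against 634 and 564 on the C6SPGFP fast arrays, a log2 difference of 3.34 ± 0.17 against -3.45 ± 0.17 in slow cells. Rhox5 had 35.3 and 37.1 against 281 and 276 (2.70 against -2.55), Fst had 350 and 413 against 724 and 768 (0.96 against -3.15) and Cyp1b1 had 3.14 and 1.37 against 49.0 and 27.8 (2.14 against -3.53). For each of these 4 genes the C6 slow arrays had the highest signals of all 8 arrays, and the C6 fast arrays were below the C6SPGFP fast arrays. The remaining probe set was one of Pde4b, singled out after its values were seen, with 0.95 in slow and -1.24 in fast cells. Il33 had 47.1 and 42.9 on the C6 fast arrays against 24.1 and 28.4 on the C6SPGFP fast arrays, a log2 difference of -0.63 that did not pass (adjusted p = 0.132).

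The size of the difference was tested between slow and fast cells as an interaction in the same fit, which includes the slow arrays that picked the probe sets. It passed for 84 of the 424, against 255 of all 6684 (3.82%). The 84 became 29 without C6SPGFP slow replicate 2, 46 without C6SPGFP slow replicate 1 or C6 slow replicate 1, and 36 and 41 without C6SPGFP fast replicates 1 and 2. Of these, 43 were lower in slow C6SPGFP cells with a positive interaction and 22 were higher in slow C6SPGFP cells with a still larger difference in fast cells. Another 17 were higher in slow cells with a smaller or opposite difference in fast cells, among them Il33, Cpe and Kcnj10. The signal filter favoured this for Kcnj10, which was tested only because it was high in C6SPGFP slow cells. It likewise favoured a positive interaction of Hspa1a and Il6, tested only because they were high in C6 slow cells. The last 2 were lower with a larger negative difference in fast cells, Fhl2 (-6.06 against -3.74) and Lama3 (-3.30 against -1.53). Tubb2b, for instance, had 32 and 34 on the C6 fast arrays against 2796 and 2535 on the C6SPGFP fast arrays, a log2 difference of 6.03 against 1.02 in slow cells. Calcb (5.43 against 1.83), Ptprz1 (5.25 against 1.68), Cd81 (5.12 against 1.24) and S100b (4.11 against 1.57) widened likewise. Sox10, whose difference in slow cells missed the threshold, had 2.23 and 0.900 against 433 and 411. For each of these 6 genes the C6 fast arrays had the lowest signals of all 8 arrays. The fast mean of C6SPGFP lay nearer to C6SPGFP slow than to C6 slow for 177 of the 220 higher and 129 of the 204 lower probe sets. The share over all tested probe sets was not counted, so these numbers only describe the called ones.

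**Figure D4:**
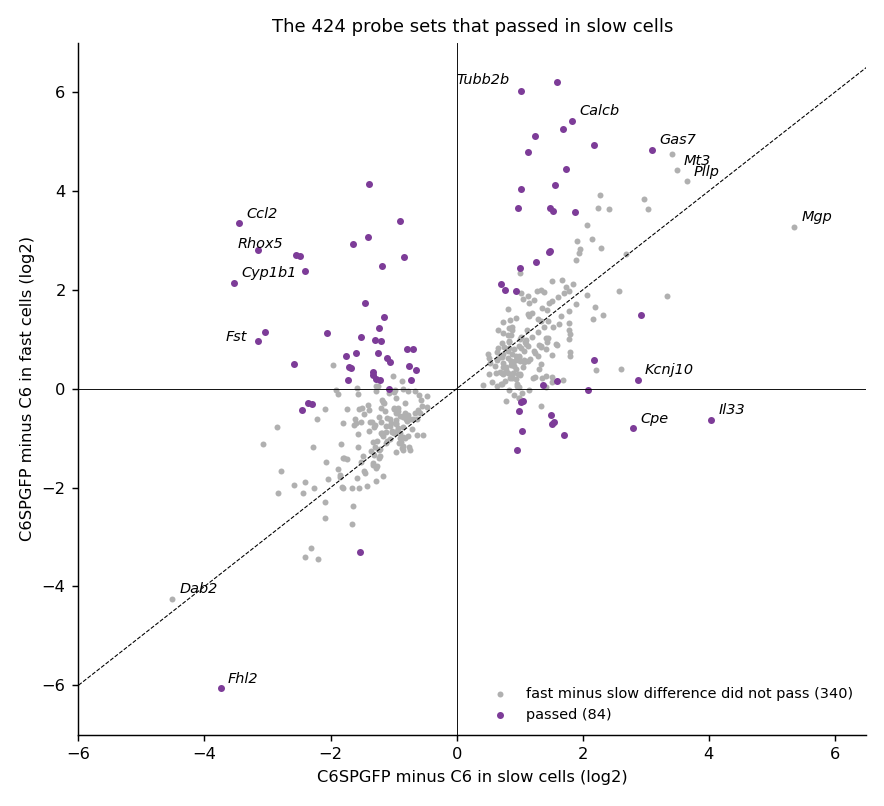
Log2 difference C6SPGFP minus C6 in slow cells (horizontal axis) and in fast cells (vertical axis) of the 424 probe sets called in slow cells, each from 2 arrays a group; the dashed line marks equal differences and purple points (84) passed the test of unequal differences. Most points lie in the upper right and lower left of the plot, Ccl2, Rhox5, Cyp1b1 and Fst lie at upper left, and Il33 and Cpe at lower right.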

How the data were processed

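Gene expression was measured on 8 rat oligonucleotide arrays with 8799 probe sets, in 4 groups of 2 taken from the sample titles. The authors deposited linear probe set intensity values; their software and scaling are not stated in any label or header. The 2% trimmed mean was 100.1 to 105.8 on 7 arrays and 500.5 on the other, C6SPGFP fast replicate 1. Quantile normalisation set all 8 to 150.9.

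A model of 4 group means was fitted to log2(signal + 8), 8 being near the 25th percentile of signals (7.56), with limma 3.58.1 in R 4.3.3 (eBayes with a trend), two-sided, with Benjamini-Hochberg adjustment over all 6684 tested probe sets at 5%. The 59 control probe sets and 2056 with a mean under 8 were left out; detection calls were not used, so no weak signal is known to exceed background. The fit left 4 residual and 4.49 prior degrees of freedom, with a median SE of 0.241. It was tested on simulated data.

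Of the probe sets, 7018 had 1 symbol, 308 several and 1473 none; 6994 symbols were updated through Entrez identifiers in the RefSeq table of GRCr8, and 24 were kept. Named were the 20 largest increases and 20 largest decreases among called probe sets with 1 symbol and no overlap between the slow arrays, up to 4 called members per direction of 27 gene lists, and Vim, Gfap, S100b, Sox10, Tubb2b, Ccl2, Rgs3, Rgs4, Mki67, Egfr and Pdgfra whatever their values (Mki67 had no named probe set); further called list members were named after their values were seen. The comparison, the members and the lists were chosen with earlier results of these data known. Alternatives covered normalisation, pseudocount (1 and 32), filter, moderation, arrays in the fit, the replicate block and each array left out. Promoters were searched with Python 3.11.15.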

Additional observations from a re-analysis of the deposited data

Results flagged for a closer look

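The named genes tested covered 118 probe sets of 113 genes. Of the probe sets among them called in slow cells, 42 had a set difference (C6SPGFP minus C6) of another size in fast cells. The test was limma's interaction test at a Benjamini-Hochberg adjusted p of 0.05, which 3.82% of all probe sets passed. Vim, Sox10 and Egfr, named but not called in slow cells, were left out of this count whatever their interaction. Each value is the log2 difference in fast cells minus that in slow cells. The slow arrays that enter it also picked the genes. Kcnj10 was tested only because it was high in C6SPGFP slow cells, and Hspa1a and Il6 only because they were high in C6 slow cells. The signal filter thus favoured their smaller differences in fast cells, and their values below give no support for such a change.

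Genes higher in slow C6SPGFP cells with a smaller or opposite difference in fast cells were Il33 (-4.667), Cpe (-3.597), Kcnj10 (-2.686), Igf1 (-2.239), Vps33a (-2.114) and Egr1 (-1.446). Genes lower in slow C6SPGFP cells with a larger negative difference in fast cells were Fhl2 (-2.314) and Lama3 (-1.778).

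Genes higher in slow C6SPGFP cells with a still larger difference in fast cells were Rhob (1.235), Cnp (1.306), Ngfr (1.307), Gad1 (1.699), Gas7 (1.738), S100b (2.545), Reln (2.755), Ptprz1 (3.571), Calcb (3.599), Cd81 (3.883) and Tubb2b (5.002).

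Genes lower in slow C6SPGFP cells with a positive value were Psme2 (0.8943), Fn1 (1.031), Klf4 (1.408), Spn (1.471), Hspa1a (1.605), Ier3 (1.666), Nqo1 (1.995), Cyp26b1 (2.077), Il6 (2.103), Gbp2 (2.159), Ptgs1 (2.331), Capg (2.597) and Gsta1 (3.067). The group went on with Nppb (3.185), Sv2b (3.67), Fst (4.11), F3 (4.469), Pdpn (4.579), Ccl2 (5.171 and 6.788 on its probe sets), Rhox5 (5.248) and Cyp1b1 (5.676 and 5.957).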

How the results depend on the processing

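With the signals as deposited, 2 probe sets were called (50% higher) instead of 424, 1 list member instead of 103, 0 instead of 84 interactions and 2 instead of 231 calls shared with fast cells. There the median SE rose from 0.241 to 0.925. Of alternatives added after the data were seen, the deposited signals with the 4 slow arrays fitted alone gave 298 calls, and those without C6SPGFP fast replicate 1 gave 326 calls, 43 interactions and 145 shared calls. On the normalised signals the slow arrays fitted alone gave 270. Calls numbered 477 with linear scaling, 302 with the slow arrays normalised and fitted alone, 408 and 438 with pseudocounts of 1 and 32, 348 without the filter, 420 with it at the 50th percentile and 367 without the trend. Leaving out each array gave 95 to 422 calls, 36 to 106 list members, 29 to 85 interactions and 60 to 196 shared calls. The replicate block gave 392 calls and 71 interactions. Deviations of same-numbered replicates had correlations of 0.0266 between the slow groups, 0.266 between C6 slow and fast, 0.104 between C6SPGFP slow and fast and -0.127 to 0.0283 otherwise, so the numbers were not taken to pair the arrays. None of the called genes chosen by the naming rule changed sign under these alternatives. Among the genes so chosen that missed the threshold, only Sox10 passed under any of them: with linear scaling (adjusted p = 0.0295), a pseudocount of 32 (0.0423), the filter at the 50th percentile (0.0393) and without C6 slow replicate 2 (0.0240). Vim, which was not called (0.14), turned to -0.13 with linear scaling and to -0.17 under each of the 3 alternatives on deposited signals. The cause of the lost calls under single omitted arrays was not tested.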

Other observations

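Some called genes outside the lists are given as values; they were singled out after their values were seen and stand for no group. Cad, which starts pyrimidine synthesis, had 70.6 and 89.4 on the C6 slow arrays against 14.7 and 10.8 on the C6SPGFP slow arrays (log2 difference -2.08 ± 0.31, limma adjusted p = 0.00674). Odc1, the first enzyme of polyamine synthesis, had 580 and 439 against 253 and 259 on one probe set (-0.96) and -0.74 on the other, and the nucleolar protein Gnl3 had 363 and 386 against 149 and 133 (-1.36) and -0.95 on a further called probe set. Both passed on 2 probe sets, and another Gnl3 probe set (-0.44) did not pass. Cth, which makes cysteine, had 76.0 and 41.5 against 6.86 and 7.55 (-2.08 ± 0.29). In fast cells the differences of Cad, Odc1, Gnl3 and Cth on these probe sets were negative and passed too, at -2.28, -1.28, -1.25 and -2.61. With 1 array left out, the highest limma adjusted p was 0.0661 for Cad (lost without C6SPGFP slow replicate 2), 0.159 for Odc1 and 0.180 for Gnl3, both lost without either C6SPGFP slow array or C6 slow replicate 1 on both probe sets, and 0.0496 for Cth.

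Among increases outside the lists, the neuropilin Nrp1, a receptor of semaphorins and of vascular growth factor, had 124 and 138 against 399 and 378 (1.51 ± 0.16, adjusted p = 0.00192). Aatk, a kinase of the nervous system, had 264 and 254 against 825 and 776 (1.6 ± 0.15), and the polarity gene Prickle2 passed on 2 probe sets (1.90 and 1.73). These 3 were higher in C6SPGFP in fast cells as well, at 2.18 for Nrp1, 6.21 for Aatk and 2.61 and 4.44 for Prickle2. With 1 array left out only Prickle2 lost a call, on 1 probe set (0.0823, without either C6SPGFP slow array).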
